A study of Homo sapiens with 9 samples.

Results

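A set of 10 genes was followed here, out of the 27800 gene symbols in the table: the receptors INSR and IGF1R, the adaptors IRS1 and IRS2, the lipid kinase subunit PIK3R1, the transcription factors FOXO1, FOXO3 and FOXO4, and the secreted binding proteins IGFBP3 and IGFBP6. They were chosen by name, as genes of insulin and IGF signalling known to answer low serum and low glucose. Earlier results of these data were known when they were chosen. RNA was sequenced from PANC-1 cells, an established human pancreatic ductal carcinoma line, on day 0, day 2 and day 14 of combined nutrient and oxygen deprivation, with 3 libraries each and 9 in all. All 9 libraries carry the tag WT in their column names. Per the labels, the deprived medium held amino acids at 20% of the standard concentration, serum from fetal calves at 0.5% and glucose at 2.5 mM. The same culture text stands on all 9 samples, and how the day 0 cells were kept, or whether replicates were separate cultures, is not said. The p-values below therefore measure only the spread between these libraries. No cells kept undeprived to day 2 or day 14 were analysed here, so time in culture and deprivation cannot be told apart.

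Insulin and the insulin-like growth factors bind the receptor kinases encoded by INSR and IGF1R, which phosphorylate the adaptors IRS1 and IRS2. The adaptors recruit phosphoinositide 3-kinase, whose regulatory subunit p85 alpha is encoded by PIK3R1, and the kinase AKT is switched on in turn. Active AKT phosphorylates FOXO factors and keeps them out of the nucleus; when serum or insulin is low, FOXO factors enter the nucleus, where INSR and IRS2 are among the genes they are known to induce. IGFBP3 and IGFBP6 are secreted proteins that hold IGFs away from their receptor.

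The measured levels showed more mRNA for the receptor INSR, the adaptor IRS2, the FOXO genes and the binding protein IGFBP3 on both later days, and less for IGFBP6. For FOXO1 the day 2 difference passed the test in the main fit but was lost in 15 of 20 alternative settings. INSR was 16.7-fold higher in mean TPM on day 2 and 15.1-fold higher on day 14 than on day 0. IRS2 was 5.51-fold and 7.10-fold higher on those days, and IRS1 showed no difference that passed the test. All 10 genes passed the filter of at least 1 TPM in at least 3 libraries. INSR and FOXO4 reached 1 TPM in no day 0 library and so passed only through the later days. FOXO1 reached 1 TPM on day 0 only in replicate 3, so it too needed the later days to pass. TPM are transcript abundances scaled to the same sum in each library and corrected for transcript length, so levels can be set side by side between genes; they keep no read depth, which is unknown here.

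The upstream sequence of INSR and IRS2 is shown because these are the members that FOXO factors are known to induce, and that of IGFBP3 because it had the largest log2 change of the 10 genes. The sequences are RefSeq promoter windows on GRCh38.p14, given for reading only, since the deposited table names hg19. Each stretch holds the 250 bases before the annotated start, written 5′ to 3′ on the strand of the gene. INSR lies at chr19:7294415-7294664, IRS2 at chr13:109786584-109786833 and IGFBP3 at chr7:45921273-45921522, all on the minus strand. Capitals mark CAAAACAA, the insulin response element, as its reverse complement TTGTTTTG in IRS2, and the hypoxia response core GCGTG or its reverse complement CACGC in IGFBP3.
INSR: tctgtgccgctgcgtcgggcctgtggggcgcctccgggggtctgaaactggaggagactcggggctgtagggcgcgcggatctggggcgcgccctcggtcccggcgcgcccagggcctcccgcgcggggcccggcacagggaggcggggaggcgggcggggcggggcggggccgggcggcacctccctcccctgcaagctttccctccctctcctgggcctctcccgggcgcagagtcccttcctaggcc
IRS2: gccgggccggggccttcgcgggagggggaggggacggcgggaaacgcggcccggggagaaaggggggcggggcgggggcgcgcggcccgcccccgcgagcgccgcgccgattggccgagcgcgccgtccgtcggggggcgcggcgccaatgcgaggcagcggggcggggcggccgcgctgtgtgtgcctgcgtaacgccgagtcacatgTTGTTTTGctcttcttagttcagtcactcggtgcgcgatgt
IGFBP3: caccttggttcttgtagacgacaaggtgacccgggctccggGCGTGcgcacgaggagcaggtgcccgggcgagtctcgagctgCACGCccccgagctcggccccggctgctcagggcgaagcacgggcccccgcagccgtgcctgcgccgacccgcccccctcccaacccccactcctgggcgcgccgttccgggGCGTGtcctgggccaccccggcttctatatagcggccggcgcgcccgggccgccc

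The motifs were chosen after values had been seen and were searched on both strands of windows running from 250 bases before to 50 bases after each start. All 10 genes had a window, and FOXO3 and PIK3R1 had 4 each. CAAAACAA was found in IRS2, 41 bases before the start, and in no other member window; 1.68% of 35116 windows of all genes held it. The FOXO core GTAAACA was found in FOXO4, 23 bases after the start, and in IGFBP6, 186 bases before it; 3.42% of all windows held it. INSR held neither motif, and neither did FOXO1, FOXO3 or IGFBP3. GCGTG was present 3 times in IGFBP3, at 209, 167 and 55 bases before the start, but also in other members. It stood 4 times in IGF1R, 5 times in 1 FOXO3 window, 2 times each in FOXO4 and 1 PIK3R1 window and 1 time in IRS1. Further windows of FOXO3 and PIK3R1 held it 1 time each, and 36.5% of all windows held it at least once. ACGTG, the other spelling of that core, which can overlap its own reverse complement, stood in 21.4% of all windows and was not found in INSR, IRS2, FOXO1, FOXO4, IGFBP3 or IGFBP6. The 2 stretches with GTAAACA in capitals are at chrX:71095863-71095892 for FOXO4 and at chr12:53097470-53097499 for IGFBP6, both on the plus strand.
FOXO4: cccggcgagtgGTAAACAgagacgtcagga
IGFBP6: caatttgggaaGTAAACAgaaactggaaag

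One library stood apart before any comparison. Day 0 replicate 2 correlated with the other day 0 libraries at a Pearson r of 0.870 and 0.875 across genes, where those correlated with each other at 0.972 and libraries within day 2 or day 14 at 0.933 to 0.953. Its values were lower for long transcripts: the median difference from the other day 0 libraries was 0.16 on the log2(TPM + 1) scale for transcripts of 1000 to 2000 nt and -1.23 for those over 8000 nt. Most of the 10 genes have long transcripts (INSR 8954 nt, IGF1R 12235 nt, IRS1 9705 nt, IRS2 8138 nt), so the log2 change of each of the 10 genes against day 0 is given with and without that library, and that of other genes where leaving it out ended a call or moved a value by over 1.5 times. Markers of epithelium and mesenchyme were present in every library. The 6 epithelial markers summed to 3160 to 4422 TPM on day 0, 1102 to 1318 TPM on day 2 and 1180 to 1396 TPM on day 14, and the 3 mesenchymal ones to 1282 to 2540, 1637 to 1772 and 891 to 1061 TPM on the same days. The sums are mostly KRT8, KRT18, KRT19 and VIM, and single genes differed. On day 2 KRT8, KRT18, KRT19 and EPCAM lay below all day 0 libraries, while KRT7 overlapped. MUC1 was higher, at 57.9 to 68.1 TPM against 21.4 to 26.7 TPM on day 0, and ZEB1 and FN1 also lay above day 0, while VIM overlapped it. On day 14 VIM, at 881 to 1043 TPM, lay below all day 0 libraries, and ZEB1 and FN1 overlapped those of day 0. Islet markers were at 0 in all libraries, the acinar sum reached at most 0.368 TPM and the endothelial sum 0.374 TPM. Of the blood markers CD68 was present and CD3E was at 0 (sums of 35.2 to 68.6, 21.3 to 39.2 and 40.2 to 55.8 TPM on days 0, 2 and 14), and of the fibroblast markers COL1A1 was present and DCN was at 0 (10.01 to 61.0, 55.6 to 72.6 and 8.33 to 12.6 TPM). The part of these marker shifts in the results below was not tested. A change in the share of cells of a kind and a change in RNA per cell cannot be told apart in bulk RNA.

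**Figure D1:**
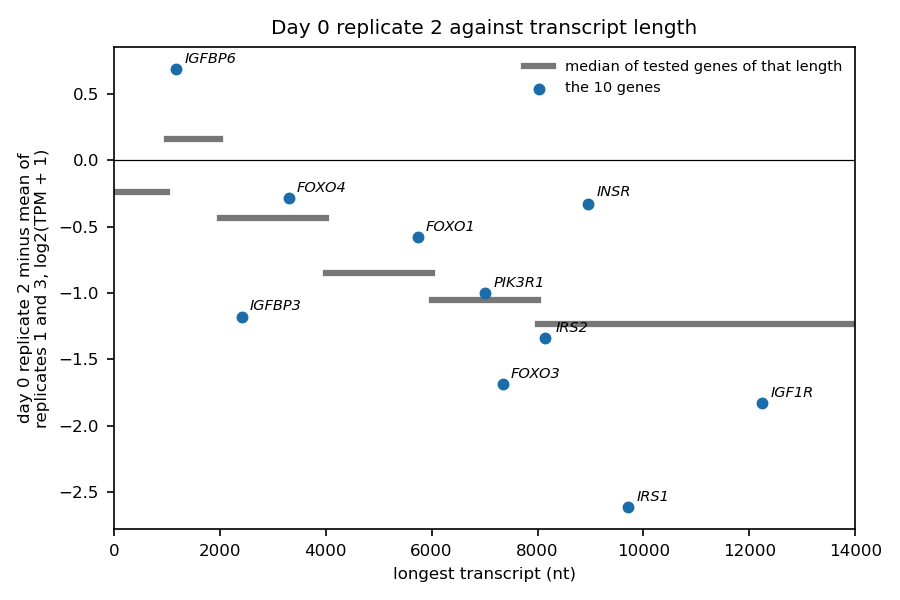
Difference of day 0 replicate 2 from the mean of day 0 replicates 1 and 3, on the log2(TPM + 1) scale, against the length of the longest transcript in nt. Points are the 10 members, and horizontal lines are medians of the tested genes in each range of length. Long members lie below 0 (IRS1 at -2.61, IGF1R at -1.83), and IGFBP6, with a transcript of 1177 nt, lies above it at 0.69.

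INSR, the insulin receptor, was close to absent on day 0. Its level was 0.291, 0.0534 and 0.363 TPM in the day 0 libraries, 4.404, 4.28 and 3.11 TPM on day 2, and 2.55, 4.46 and 3.69 TPM on day 14. Every later library lay above every day 0 library, and days 2 and 14 overlapped. On the log2(TPM + 1) scale INSR rose by 1.99 ± 0.21 (SE) on day 2 (limma, adjusted p = 0.000485) and by 1.87 ± 0.21 on day 14 (limma, adjusted p = 0.000737). This scale understates the change of a gene that starts below 1 TPM, which is why the ratio of means is far larger. INSR passed the filter only through the later days, where it is high, so these p-values are conditional on that; with no filter on low values the adjusted p were 0.00134 and 0.0019. Leaving out day 0 replicate 2 gave changes of 1.88 and 1.76.

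IGF1R, the receptor for IGF1 and IGF2, was the more abundant receptor throughout. It measured 10.9, 2.45 and 11.7 TPM on day 0, 12.5, 18.0 and 13.0 TPM on day 2, and 26.7, 17.3 and 23.9 TPM on day 14. The later libraries all lay above those of day 0, but day 2 replicates 1 and 3 were close to day 0 replicates 1 and 3. The change on day 14 was 1.53 ± 0.47 (limma, adjusted p = 0.0351), and it was 0.92 without day 0 replicate 2 (adjusted p = 0.00959). On day 2 the change of 0.93 ± 0.47 did not pass (limma, adjusted p = 0.162), and without day 0 replicate 2 it was 0.32. The day 14 call was lost when any single day 2 or day 14 library was left out, with adjusted p between 0.0502 and 0.104. It was also lost with no filter on low values (0.0566), with only the days compared in the fit (0.0863) and without MIR6723 and MIR4461 (0.0717).

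INSR made up 2.13 to 2.999% of the summed TPM of both receptors on day 0, 19.2 to 26.1% on day 2 and 8.70 to 20.5% on day 14. The shares of the later days overlapped each other and lay above all those of day 0. The log2 ratio of INSR to IGF1R differed by 3.37 between day 2 and day 0 and by 2.57 between day 14 and day 0, each with an exact two-sided permutation p of 0.1, the smallest that 3 libraries against 3 allow. The 5 ratios given here and below were chosen after values had been seen, and over the 15 tests of them a raw p of 0.1 was 0.136 after Benjamini-Hochberg adjustment. Without day 0 replicate 2 the differences were 3.24 and 2.44. A ratio within a library is not moved by scaling the whole library with 1 factor.

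IRS1 and IRS2 encode the docking proteins that both receptors phosphorylate. IRS2 measured 4.91, 1.30 and 4.74 TPM on day 0, 18.2, 23.8 and 18.4 TPM on day 2, and 31.9, 21.3 and 24.5 TPM on day 14. The lowest later library was more than 3 times the highest of day 0, and days 2 and 14 overlapped. IRS2 rose by 2.29 ± 0.36 on day 2 (limma, adjusted p = 0.00262) and by 2.64 ± 0.36 on day 14 (limma, adjusted p = 0.00151). The changes were 1.85 and 2.19 without day 0 replicate 2, with both adjusted p lower than before.

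IRS1 measured 14.0, 1.44 and 13.8 TPM on day 0, 12.9, 16.03 and 13.2 TPM on day 2, and 11.8, 10.7 and 12.9 TPM on day 14. Apart from day 0 replicate 2, all libraries lay between 10.7 and 16.03 TPM, and the days overlapped. The change was 0.88 on day 2 (95% interval -0.53 to 2.28; limma, adjusted p = 0.301) and 0.64 on day 14 (interval -0.76 to 2.05; adjusted p = 0.435). When day 0 replicate 2 was left out the changes were 0.01 ± 0.13 and -0.23 ± 0.13, and neither passed, so the sign on day 14 turned without that library.

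IRS2 thus took up a larger share of the pair. It held 25.5 to 47.5% of the summed TPM of IRS1 and IRS2 on day 0, 58.2 to 59.7% on day 2 and 65.5 to 73.0% on day 14. No library of one day overlapped those of another, and the highest day 0 share, 47.5%, was that of replicate 2. The log2 ratio of IRS2 to IRS1 was 1.58 higher on day 2 than on day 0, 2.19 higher on day 14 than on day 0 and 0.61 higher on day 14 than on day 2, each at the smallest exact permutation p of 0.1. The differences from day 0 were 2.04 and 2.65 without day 0 replicate 2. IRS4, a further adaptor of the family, was at most 0.0932 TPM in any library.

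PIK3R1, the p85 alpha subunit that binds phosphorylated IRS proteins, was low in all libraries. It measured 3.17, 0.887 and 2.41 TPM on day 0, 1.41, 1.73 and 1.40 TPM on day 2, and 2.22, 1.68 and 1.61 TPM on day 14. Day 0 replicates 1 and 3 were the highest and replicate 2 the lowest of the 9 libraries, so the days overlapped. The change was -0.26 ± 0.28 on day 2 (limma, adjusted p = 0.506) and -0.08 ± 0.28 on day 14 (adjusted p = 0.834). Once day 0 replicate 2 was left out it was -0.59 on day 2, which passed (limma, adjusted p = 0.0182), and -0.42 on day 14, which did not (adjusted p = 0.0627).

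The other regulatory subunits did not move alike. PIK3R3, encoding p55 gamma, measured 8.60, 4.20 and 9.86 TPM on day 0, 15.6, 15.7 and 15.3 TPM on day 2, and 8.74, 12.04 and 7.50 TPM on day 14. It rose by 1.02 on day 2 (limma, adjusted p = 0.0304), a call lost without any single day 2 library. Its change of 0.33 on day 14 did not pass (limma, adjusted p = 0.404), and it was 0.006 without day 0 replicate 2. Its share of the summed TPM of PIK3R1, PIK3R2 and PIK3R3 was 23.2 to 36.1% on day 0, 50.9 to 53.1% on day 2 and 25.0 to 36.3% on day 14, while PIK3R1 held 6.29 to 8.58, 4.74 to 5.60 and 5.06 to 7.79% on these days. PIK3R2, encoding p85 beta, changed by -0.35 on day 2 with all libraries (limma, adjusted p = 0.564) and by -0.96 without day 0 replicate 2 (adjusted p = 0.000433). On day 14 its change was 0.21 with all libraries (limma, adjusted p = 0.730) and -0.39 without that one (adjusted p = 0.0184).

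**Figure D2:**
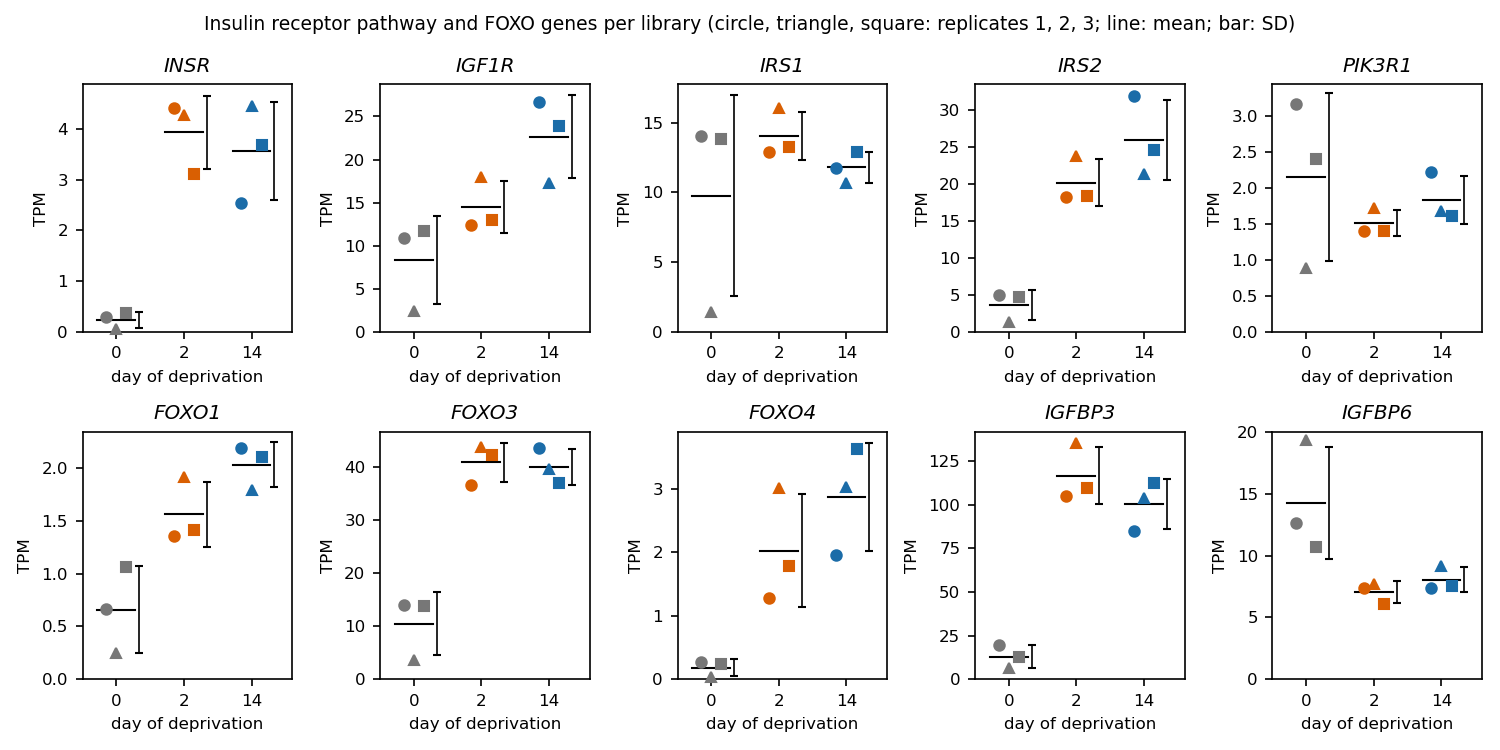
TPM of the 10 genes in each library, by day of deprivation, with symbols for replicates 1, 2 and 3, a line at the mean of 3 libraries and a bar of 1 SD. In INSR, IRS2, FOXO3, FOXO4 and IGFBP3 the libraries of days 2 and 14 lie above all those of day 0, and day 0 replicate 2 is the lowest day 0 library in every gene but IGFBP6.

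FOXO3 was the most abundant FOXO mRNA. It measured 14.0, 3.63 and 13.8 TPM on day 0, 36.6, 43.7 and 42.2 TPM on day 2, and 43.6, 39.6 and 36.9 TPM on day 14. Every later library exceeded every day 0 library by more than 2-fold, and the later days covered nearly the same range. FOXO3 rose by 2.05 ± 0.41 on day 2 (limma, adjusted p = 0.00706) and by 2.02 ± 0.41 on day 14 (limma, adjusted p = 0.0072). The changes were 1.49 ± 0.12 and 1.46 ± 0.12 without day 0 replicate 2, smaller and with a smaller error.

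FOXO3 shares most of its sequence with FOXO3B, a near-identical copy, and how reads were split between them is not known. FOXO3B averaged 2.20 ± 0.29 TPM on day 2 and 1.07 ± 0.57 TPM on day 0 (SD, n = 3 each; limma, adjusted p = 0.0663), and 2.95 ± 0.67 TPM on day 14 (adjusted p = 0.0164 against day 0). The day 2 log2 change was 0.83 without day 0 replicate 3, where it passed, and 0.42 without day 0 replicate 2. The day 14 call was lost without day 14 replicate 3. The sum of both ran from 4.07 to 15.4 TPM on day 0, 38.7 to 46.2 TPM on day 2 and 40.5 to 46.0 TPM on day 14, so the separation of the days was seen in the sum as well.

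FOXO1, the factor best known from insulin control of liver glucose output, was a low-abundance transcript. It measured 0.668, 0.243 and 1.06 TPM on day 0, 1.36, 1.92 and 1.41 TPM on day 2, and 2.19, 1.79 and 2.11 TPM on day 14. The days did not overlap against day 0, but the gap between 1.06 and 1.36 TPM is narrow. Only replicate 3 reached 1 TPM on day 0, so FOXO1 needed the later days to pass the filter. Its p-values are conditional on that. FOXO1 rose by 0.90 ± 0.21 on day 14 (limma, adjusted p = 0.0113) and by 0.65 ± 0.21 on day 2 (adjusted p = 0.0419). With day 0 replicate 2 left out the change was 0.46 on day 2, which just missed the threshold at an adjusted p of 0.0506, and 0.71 on day 14 (adjusted p = 0.00959). The day 2 call was lost in 15 of 20 alternative settings. Besides that one, these were leaving out day 0 replicate 1 or any single day 2 or day 14 library. The call was also lost with a pseudocount of 0.1, no filter on low values, quantile normalization or a block for replicate number. Fits of only the days compared, the trend on transcript length removed and rescaling without MIR6723 and MIR4461 lost it too. The day 14 call was lost under quantile normalization (limma, adjusted p = 0.0847) and with the trend on transcript length removed (limma, adjusted p = 0.151). It was kept with no filter on low values.

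FOXO4 measured 0.277, 0.0275 and 0.232 TPM on day 0, 1.28, 3.02 and 1.78 TPM on day 2, and 1.95, 3.04 and 3.63 TPM on day 14. All later libraries were above 1 TPM and all day 0 libraries below 0.3 TPM, with wide spread within each later day. FOXO4 rose by 1.33 ± 0.25 on day 2 (limma, adjusted p = 0.00544) and by 1.70 ± 0.25 on day 14 (limma, adjusted p = 0.00198), 11.3-fold and 16.1-fold in mean TPM. Leaving out day 0 replicate 2 gave changes of 1.23 and 1.60. Like INSR, FOXO4 passed the filter only through the later days, and with no filter the adjusted p were 0.0106 and 0.00416.

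FOXO6, the remaining FOXO gene, was not a member but was set beside them. It averaged 1.85 ± 0.72 TPM on day 2 and 0.432 ± 0.147 TPM on day 0, and rose by 0.97 on day 2 (limma, adjusted p = 0.00883) and by 0.92 on day 14 (adjusted p = 0.0101), with every day 0 library below 1 TPM, so that it was tested only because of the later days; neither call passed under quantile normalization. FOXO3 held 85.6 to 90.0% of the summed TPM of the 4 FOXO genes on day 0, 85.3 to 90.6% on day 2 and 83.0 to 87.8% on day 14. FOXO4 held 0.649 to 1.78, 3.13 to 5.89 and 3.93 to 8.16% on those days. The log2 ratio of FOXO4 to FOXO3 was 1.78 higher on day 2 and 2.35 higher on day 14 than on day 0, at the smallest exact permutation p of 0.1 for each, and 1.36 and 1.93 higher without day 0 replicate 2. The log2 ratio of FOXO1 to FOXO3 differed by -0.73 between day 2 and day 0 (exact permutation p = 0.1) and by -0.31 between day 14 and day 0 (exact permutation p = 0.3, adjusted 0.321). Leaving out day 0 replicate 2 gave -0.68 and -0.26.

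**Figure D3:**
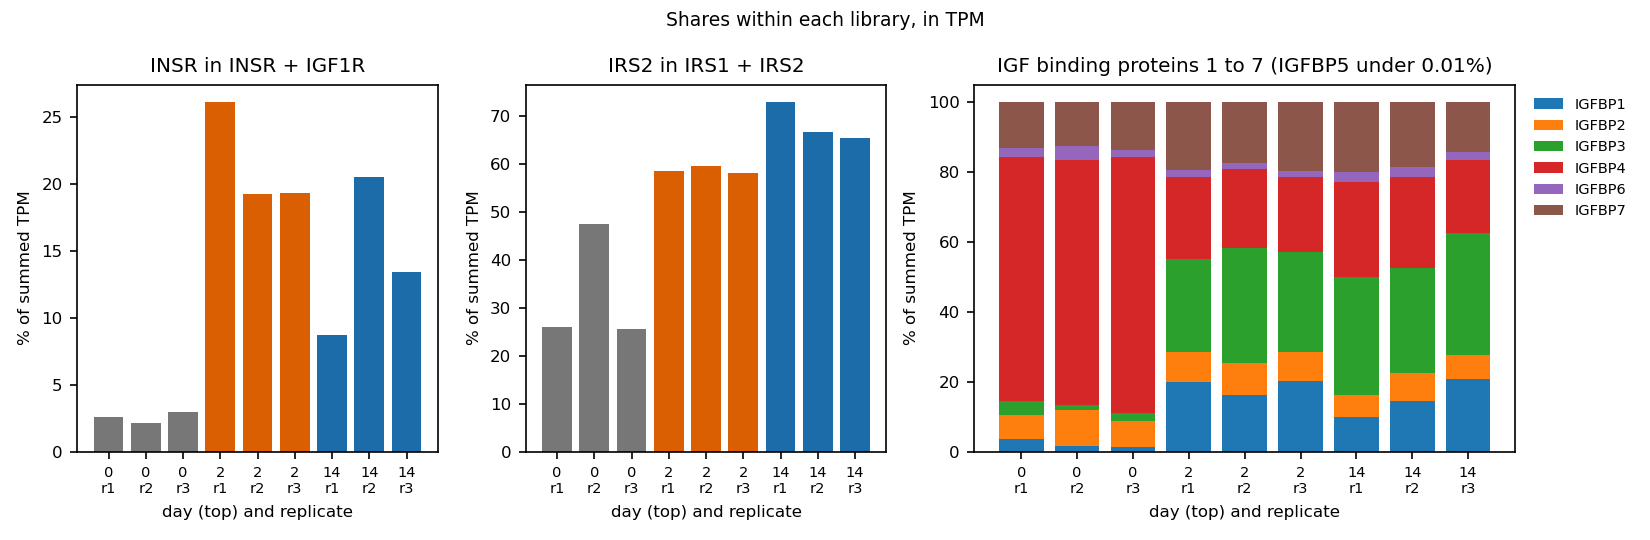
Shares within each library in % of summed TPM: INSR of INSR and IGF1R, IRS2 of IRS1 and IRS2, and each of IGFBP1 to IGFBP7 of their sum, with libraries ordered by day and replicate. The IRS2 share is 25.5 to 47.5% on day 0, 58.2 to 59.7% on day 2 and 65.5 to 73.0% on day 14, and the IGFBP4 share shrinks as those of IGFBP3 and IGFBP1 widen.

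IGFBP3, the main carrier of IGFs in serum, had the largest log2 change of the 10 genes on both later days. It measured 19.8, 6.39 and 12.5 TPM on day 0, 105.0, 135 and 109.7 TPM on day 2, and 84.7, 104 and 112 TPM on day 14. The later libraries were all more than 4 times the highest day 0 library, and days 2 and 14 overlapped. IGFBP3 rose by 3.20 ± 0.34 on day 2 (limma, adjusted p = 0.000475) and by 2.98 ± 0.34 on day 14 (limma, adjusted p = 0.000738), 9.07-fold and 7.80-fold in mean TPM. Both passed without day 0 replicate 2, with changes of 2.81 and 2.59.

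IGFBP6, which binds IGF2 in preference to IGF1, was lower on the later days. It measured 12.7, 19.4 and 10.7 TPM on day 0, 7.36, 7.71 and 6.06 TPM on day 2, and 7.38, 9.19 and 7.55 TPM on day 14. All later libraries lay below all day 0 libraries, the nearest being 9.19 and 10.7 TPM. IGFBP6 fell by 0.89 on day 2 (SE 0.24; limma, adjusted p = 0.0221) and by 0.72 on day 14 (limma, adjusted p = 0.0448). Without day 0 replicate 2, which was high for this short transcript, the changes were -0.66 and -0.49, and both passed. Both calls were lost when any single day 2 library was left out, and that of day 14 also without any single day 14 library or without day 0 replicate 1.

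The other IGF binding proteins differed in direction. IGFBP4, an inhibitor of IGF action, averaged 89.8 ± 6.33 TPM on day 2, 75.2 ± 13.3 TPM on day 14 and 346 ± 37.2 TPM on day 0 (SD, n = 3 each). It fell by 1.93 on day 2 (limma, adjusted p = 0.000273) and by 2.20 on day 14 (adjusted p = 0.000208). IGFBP1, a secreted IGF carrier known as a FOXO target in liver, averaged 74.1 ± 6.38 TPM on day 2 and 46.9 ± 20.9 TPM on day 14, against 10.5 ± 5.33 TPM on day 0, and rose by 2.80 and 2.04 (limma, adjusted p = 0.00159 and 0.00595). IGFBP2, a further secreted carrier, fell by 0.81 on day 14 (limma, adjusted p = 0.0286), a call lost without either day 0 replicate 3, day 2 replicate 1 or day 14 replicate 1 or 3. IGFBP7 changed by 0.24 and -0.25 without passing (adjusted p = 0.338 and 0.296). Under median-ratio scaling its sign on day 2 turned and it was called lower on day 14 (-0.85, adjusted p = 0.0286), as it was with array weights (-0.37, adjusted p = 0.0439). IGFBP5 was at most 0.0200 TPM.

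The make-up of the family differed accordingly. IGFBP3 held 1.38 to 4.24% of the summed TPM of IGFBP1 to IGFBP7 on day 0, 26.6 to 32.8% on day 2 and 30.1 to 35.03% on day 14. IGFBP4 held 69.6 to 73.3, 21.5 to 23.7 and 20.8 to 27.1% on these days, and IGFBP6 held 2.01 to 4.18, 1.58 to 1.87 and 2.35 to 2.94%. The sum of the 7 genes was 464 to 531 TPM on day 0, 384 to 413 TPM on day 2 and 251 to 347 TPM on day 14. The log2 ratio of IGFBP3 to IGFBP4 was 5.26 higher on day 2 and 5.31 higher on day 14 than on day 0, each at the smallest exact permutation p of 0.1. These were 4.87 and 4.92 without day 0 replicate 2.

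Counted over the 10 genes, 6 were called higher and 1 lower on day 2 against day 0, where 19.2% of the 14144 tested genes were called higher and 11.5% lower. Without day 0 replicate 2, 5 were called higher and 2 lower, against 24.7% and 23.6% of tested genes. On day 14 against day 0, 7 were called higher and 1 lower, beside 27.5% and 6.72% of tested genes, and the same numbers were called without day 0 replicate 2 (34.6% and 14.5%). The libraries of 8 of the 10 genes did not overlap between day 2 and day 0, with IGFBP6 lower and the rest higher (33.4% higher and 17.4% lower of tested genes), and likewise between day 14 and day 0 (42.5% and 9.95%). By the moderated F test over the 3 days 7 of the 10 passed, beside 35.4% of tested genes. The median change of the 10 genes was 1.13 on day 2 and 1.62 on day 14, against 0.23 and 0.44 for all tested genes. Without day 0 replicate 2 these medians were 0.84 and 1.19, against 0.02 and 0.25. INSR and FOXO4 entered the test through the later days alone, and FOXO1 needed those days to enter it. These counts therefore describe the genes and support nothing further.

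The median of all tested genes depended on the scaling of the libraries: with median-ratio scaling it was -0.04 on both days, and with quantile normalization -0.02 and -0.01. Of all genes called, 62.4% were higher on day 2 and 80.4% on day 14 as deposited, 47.1% and 46.4% with median-ratio scaling and 47.9% and 49.6% with quantile normalization. Relative to the median of all tested genes as deposited, IGFBP3 was 2.97 higher on day 2 and 2.54 higher on day 14, IRS2 2.06 and 2.20, FOXO3 1.82 and 1.58, INSR 1.76 and 1.43, and FOXO4 1.10 and 1.26. IGFBP3, IRS2 and FOXO3 kept their direction and call under every scaling tried. INSR and FOXO4 kept their direction as well, but they were tested only because of the later days, so their calls add nothing to this. IGFBP6 was 1.12 lower than that median on day 2 and 1.16 lower on day 14, and PIK3R1 was 0.49 and 0.52 lower. Under quantile normalization PIK3R1 was called lower on day 2 with a change of -0.69 (limma, adjusted p = 0.00686), and the change of FOXO1 on day 2 was 0.20 and did not pass (adjusted p = 0.256).

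**Figure D4:**
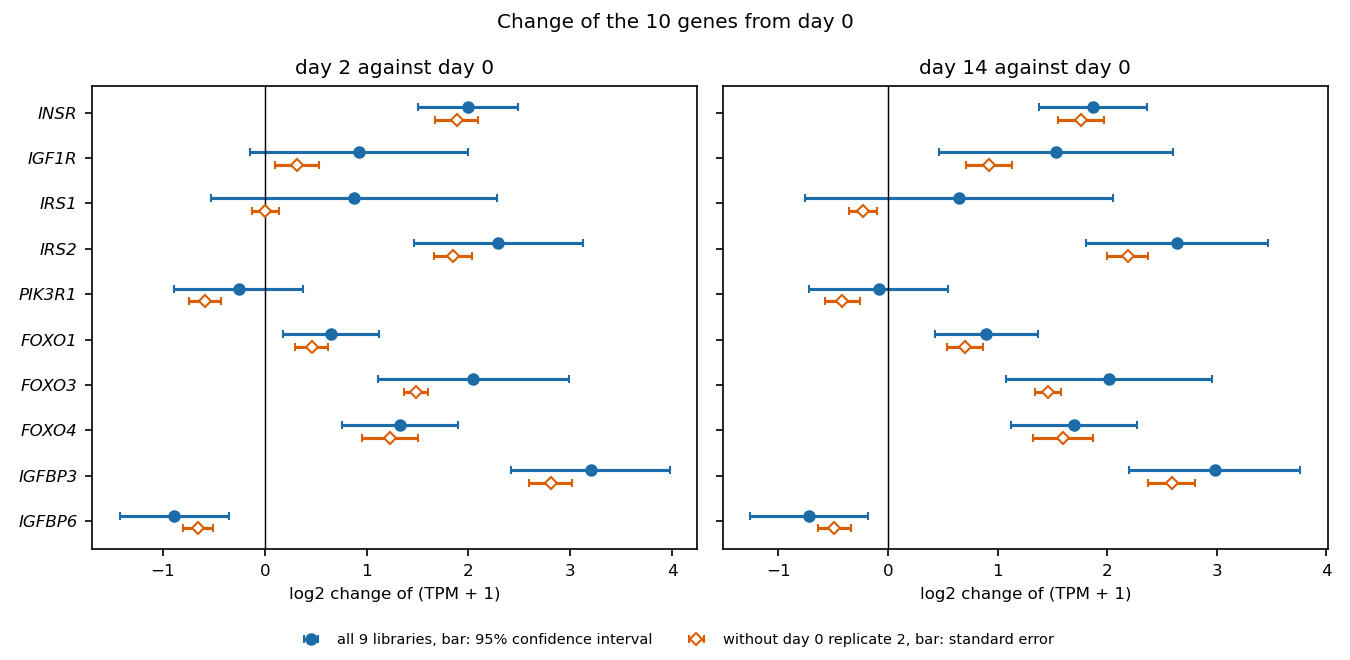
Change of the 10 genes against day 0 on day 2 and day 14, in log2 of (TPM + 1), for all 9 libraries (bars, 95% intervals) and without day 0 replicate 2 (bars, standard errors). IGFBP3 (3.20 and 2.98), IRS2, FOXO3 and INSR lie to the right of 0 in both fits, and IRS1 moves to near 0 without that library.

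Between day 14 and day 2, none of the 10 genes passed, where 0.417% of tested genes did (limma, 59 of 14144). None had an unadjusted p under 0.05, the smallest being 0.176, and the libraries of all 10 overlapped, against 43.8% of tested genes whose libraries did not. The changes of the members with the largest day 0 contrasts were -0.22 for IGFBP3 (95% interval -0.996 to 0.56), 0.34 for IRS2 (-0.49 to 1.17), -0.03 for FOXO3 (-0.97 to 0.91) and -0.12 for INSR (-0.61 to 0.37). These intervals leave room for changes near 2-fold in either direction for FOXO3. Without day 0 replicate 2, whose spread enters the shared error, 27.4% of tested genes were called between these days, and again none of the 10. IGF1R came nearest, with a change of 0.61 and an adjusted p of 0.0511.

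The rest of the pathway was described by 6 lists, chosen with earlier results of these data known. Of the ligands and receptors outside the 10 genes, 2 of 5 were tested. INS was at 0 in every library and IGF1 at most 0.106 TPM, so IGF2 was the ligand mRNA present. IGF2 averaged 43.4 ± 2.63 TPM on day 2 and 18.4 ± 9.21 TPM on day 0 and rose by 1.31 (limma, adjusted p = 0.0318). That call was lost without any single day 2 library or without day 0 replicate 1, and IGF2 overlaps other transcripts at its locus, so its reads are not certain. No gene of this list was called on day 14.

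Among adaptors, 9 of 12 were tested, with 2 higher and 0 lower on each later day, beside 19.2% higher and 11.5% lower of all tested genes on day 2 and 27.5% and 6.72% on day 14, so the share of 2 in 9 is near that of all genes. Without day 0 replicate 2 there were 3 higher and 2 lower on day 2 (24.7% and 23.6% of all tested genes), and 3 and 1 on day 14 (34.6% and 14.5%). SH2B2, an adaptor of the insulin receptor, averaged 2.61 ± 0.25 TPM on day 2, 3.66 ± 0.56 TPM on day 14 and 0.838 ± 0.301 TPM on day 0, and rose by 0.99 and 1.35 (limma, adjusted p = 0.00496 and 0.00142). SH2B2 reached 1 TPM on day 0 only in replicate 3, so it needed the later days to be tested. These p-values are conditional on that, and both calls were kept with no filter on low values. GRB10, which binds and inhibits both receptors, rose by 0.91 on day 2 (adjusted p = 0.0334; 0.58 without day 0 replicate 2), and GRB2, which links receptors to RAS, rose by 0.99 on day 14 (adjusted p = 0.0236). The GRB10 call was lost without any single day 2 library or without day 14 replicate 2 or 3, and the GRB2 call without day 14 replicate 1 or 3. The list had 1 called gene on day 2 without any single day 2 library or without day 14 replicate 2 or 3, and 1 on day 14 without day 14 replicate 1 or 3.

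Of the 22 genes of PI3K, AKT and their brakes, all tested, 6 were higher and 0 lower on day 2 (19.2% and 11.5% of all tested genes) and 8 higher and 0 lower on day 14 (27.5% and 6.72%). With day 0 replicate 2 left out the counts were 9 and 4 on day 2, beside 24.7% and 23.6% of all tested genes, and 10 and 3 on day 14, beside 34.6% and 14.5%. The count of 0 lower was thus not kept without that library. TRIB3, a pseudokinase that binds and inhibits AKT, had the largest change of the list. It averaged 295 ± 15.8 TPM on day 2, 340 ± 23.0 TPM on day 14 and 19.4 ± 3.71 TPM on day 0, and rose by 3.88 and 4.08 (limma, adjusted p = 3.27e-05 and 3.18e-05). PPP2R5B, a phosphatase subunit that acts on AKT, averaged 29.8 ± 2.05 TPM on day 2, 33.1 ± 1.41 TPM on day 14 and 7.23 ± 4.58 TPM on day 0, and rose by 2.13 and 2.28 (adjusted p = 0.00883 and 0.00641). Leaving out day 2 replicate 2 left 3 called genes on day 2, and leaving out day 14 replicate 1 or 3 left 5 on day 14.

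Among regulators of FOXO, 11 of 12 were tested, with 2 higher and 3 lower on day 2 (19.2% and 11.5% of all tested genes) and 3 higher and 1 lower on day 14 (27.5% and 6.72%), so the shares called higher are near those of all genes. Without day 0 replicate 2 there were 4 and 4 on day 2 (24.7% and 23.6% of all tested genes) and 4 and 2 on day 14 (34.6% and 14.5%). SIRT1, a deacetylase of FOXO proteins, averaged 48.5 ± 0.53 TPM on day 2, 62.5 ± 6.98 TPM on day 14 and 19.3 ± 5.93 TPM on day 0, and rose by 1.33 and 1.69 (limma, adjusted p = 0.00419 and 0.00163). SKP2, the ubiquitin ligase subunit that marks FOXO1 for degradation and also serves the cell cycle, averaged 2.57 ± 0.49 TPM on day 2, 1.91 ± 0.38 TPM on day 14 and 10.2 ± 1.97 TPM on day 0. It fell by 1.65 and 1.94 (adjusted p = 0.000877 and 0.00052). SGK1, a kinase that phosphorylates FOXO3, fell by 1.14 on day 2 (adjusted p = 0.0326), lost without any single day 2 library, day 0 replicate 1 or 3 or day 14 replicate 3. CREBBP, an acetyltransferase, rose by 1.88 on day 14 (adjusted p = 0.0341; 1.08 without day 0 replicate 2), lost without any single day 2 or day 14 library. The day 2 count of this list was 3 without any single day 2 library or day 14 replicate 3.

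Of 35 textbook FOXO targets 28 were tested, and 17 were higher and 2 lower on each later day, beside the 19.2% and 11.5% of tested genes on day 2 and the 27.5% and 6.72% on day 14. The median change over the list was 1.76 on day 2 and 1.59 on day 14, against 0.23 and 0.44 for all tested genes. Without day 0 replicate 2, 18 were higher and 2 lower on each day, and the medians were 1.31 and 1.08, against 0.02 and 0.25. In that fit 24.7% of all tested genes were higher and 23.6% lower on day 2, and 34.6% and 14.5% on day 14. Many genes of the list answer other stimuli as well, low oxygen and stress among them, and the part of these in the counts was not tested. Because earlier results of these data were known when the list was chosen, its counts and medians describe these genes and support nothing further. CCNG2, an atypical cyclin linked to cell cycle arrest, was below 1 TPM in every day 0 library. It was thus tested, and counted above, only through the later days. CCNG2 averaged 12.8 ± 1.06 TPM on day 2, 8.31 ± 1.88 TPM on day 14 and 0.340 ± 0.107 TPM on day 0. TXNIP, an inhibitor of glucose uptake and thioredoxin, averaged 30.1 ± 8.84 TPM on day 2, 59.0 ± 47.7 TPM on day 14 and 0.950 ± 0.519 TPM on day 0, and rose by 3.99 and 4.36 (limma, adjusted p = 0.00699 and 0.00474). Its day 14 libraries spread widely, at 7.46, 101.5 and 68.1 TPM. TXNIP reached 1 TPM on day 0 only in replicate 1, so it needed the later days to be tested. Its p-values are conditional on that, and both calls were kept with no filter on low values.

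CITED2, a transcriptional coregulator also induced by low oxygen, averaged 363 ± 22.8 TPM on day 2, 437 ± 151 TPM on day 14 and 29.2 ± 8.84 TPM on day 0, and rose by 3.64 and 3.84 (limma, adjusted p = 0.000206 and 0.000208). The cell cycle inhibitor CDKN1B, named like CCNG2 after values were seen, averaged 34.001 ± 2.20 TPM on day 2, 40.1 ± 4.78 TPM on day 14 and 11.3 ± 2.96 TPM on day 0, and rose by 1.54 and 1.77 (adjusted p = 0.00149 and 0.00094). In the other direction, SOD2, the mitochondrial superoxide dismutase, fell by 0.76 and 0.51 (adjusted p = 0.00659 and 0.0299), and the day 14 call did not hold when day 0 replicate 1, day 2 replicate 1 or 3 or any single day 14 library was omitted. PRDX3, a mitochondrial peroxidase, fell by 0.84 on day 2 (adjusted p = 0.0275), lost without any single day 2 library. CCNG1, a cyclin of the p53 response, fell by 0.92 on day 14 (adjusted p = 0.0388), which did not pass without day 0 replicate 2 (adjusted p = 0.054) or without any single day 2 or day 14 library.

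The last list held other IGF binding proteins, their proteases and IGF2 mRNA binding proteins. Of 12 genes 9 were tested, with 1 higher and 1 lower on day 2 (19.2% and 11.5% of all tested genes) and 2 higher and 2 lower on day 14 (27.5% and 6.72%). On day 14 without day 0 replicate 2 there were 3 higher and 2 lower (34.6% and 14.5%). PAPPA, the protease that cuts IGFBP4, averaged 3.65 ± 1.17 TPM on day 14 and 0.678 ± 0.465 TPM on day 0. It was below 1 TPM in every day 0 library and so was tested only through the later days; its change was 1.48, with an adjusted p of 0.00406 by limma and of 0.00833 with no filter. IGFBP1 stands both here and among the FOXO targets. No gene of the 6 lists was called between day 14 and day 2 by limma, where 10 of the 80 tested had an unadjusted p under 0.05, beside 18.1% of all tested genes. With day 0 replicate 2 left out, 22 of them were called, which is about the 27.4% of all tested genes called in that fit.

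The genes whose pattern over the 9 libraries was most like that of the members with the largest moderated F were listed by Pearson correlation of log2(TPM + 1), among 10066 or 10067 genes with a mean of at least 5 TPM. The points share day 0 replicate 2 and the step from day 0, which many genes show. IGFBP3 was most like ATP7A (r = 0.997), EGLN1 (0.995) and ABHD4 (0.993). INSR was most like WISP2 (0.990), CITED2 (0.990) and DEPTOR (0.989). IRS2 was most like JDP2 (0.996), MZF1-AS1 (0.995) and STARD7-AS1 (0.995).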

How the data were processed

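RNA sequencing of 9 libraries was analysed from the table of TPM per gene symbol that the authors deposited. The TPM were made with Salmon, naming hg19, per the submitters' processing notes; the versions, annotation, strand setting and filters are not given in the sources used here. Depth cannot be read from TPM, which are proportions inside a library, so the precision rests on the 3 libraries per day. Columns were matched to samples by day and replicate in their names.

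Values were analysed as log2(TPM + 1) for 14144 of 27800 symbols reaching 1 TPM in 3 or more libraries, with limma 3.58.1 in R 4.3.3 (1 fit of all libraries, intensity trend, two-sided, p-values adjusted by Benjamini and Hochberg over all tested genes per comparison, threshold 0.05). For genes near or below 1 TPM this scale compresses fold changes. Log2 ratios of genes were compared by exact permutation over libraries. The fit was tested on simulated data. Transcript lengths came from GENCODE on GRCh38 (25430 symbols matched) and promoter sequences from RefSeq on GRCh38.p14.

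The members and lists were chosen with earlier results of these data known. All members were named; of each list and comparison up to 2 called genes with the largest rise and up to 2 with the largest fall, with a mean of at least 1 TPM on the higher day, and other genes of a member's family whatever their result. Alternatives were pseudocounts of 0.1 and 5, other filters, scalings and variance models, a block for replicate number, separate fits per pair of days and the omission of single libraries. Ratios without day 0 replicate 2 were added after seeing the data. Rescaling without MIR6723 and MIR4461 was also added then, because MIR6723 held 16.2 to 32.6% of all TPM in a library.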

Additional observations from a re-analysis of the deposited data

How the results depend on the processing

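The calls of IRS2, FOXO3 and IGFBP3 against day 0 passed under all alternatives run, and no called member reversed under any of them. INSR and FOXO4, which passed the filter only through the later days, were also called wherever they were tested, which is no sign of stability except with no filter on low values. The lost calls were those of FOXO1 and IGFBP6 on both days and of IGF1R on day 14. The labels state no pairing by replicate number, and deviations of same-numbered libraries from the mean of their day correlated at -0.08 to 0.02. With 3 libraries per day and day 0 replicate 2 apart from the others, this cannot exclude pairing. With the replicate block 6, 8 and 0 members were called on day 2 against day 0, day 14 against day 0 and day 14 against day 2, and FOXO1 on day 2 missed the threshold (adjusted p = 0.0799). Of all 14144 tested genes the block called 3290 on day 2 and 3771 on day 14 against day 0. Between day 14 and day 2 it called 2 genes, against 59 without it.

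The filter at a mean of 5 TPM left INSR, FOXO1, FOXO4 and PIK3R1 untested. It called 4 members on day 2, 5 on day 14 and 4 by the moderated F test. Of 10133 tested genes it called 3099 on day 2 and 3214 on day 14 against day 0, and 24 on day 14 against day 2. Array weights called 8975, 8455 and 5052 genes in the 3 comparisons, 57 list genes on day 2 and 30 between day 14 and day 2, where 2 members also passed (IGF1R 0.66, FOXO4 0.64). Fits of only the days compared called 2927 genes on day 14 against day 0, 2519 on day 14 against day 2 and 13 list genes there. Genes called between day 14 and day 2 numbered 6 with a pseudocount of 0.1, 127 with 5, 131 with median-ratio scaling, 341 with quantile normalization, 338 with the length trend removed and 13 without MIR6723 and MIR4461, and list genes 4 under quantile normalization and 4 with the length trend removed. The cause was not tested.

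Leaving out 1 library gave 5 to 7 members on day 2, 6 to 8 on day 14, 0 between the later days and 5 to 9 by the moderated F test; 2678 to 6800, 3141 to 6913 and 0 to 3854 genes in the 3 comparisons, the most each time without day 0 replicate 2; and 26 to 48, 26 to 47 and 0 to 22 list genes. Changes that did not pass and turned sign were those of IRS1 (-0.032 on day 2 with array weights; on day 14 -0.189 with array weights, -0.110 with the length trend removed and -0.226 to 1.085 with 1 library left out, the negative one without day 0 replicate 2) and PIK3R1 on day 14 (-0.416 to 0.157 with 1 library left out, positive without day 0 replicate 1 or 3). Between day 14 and day 2 they were INSR (0.00134 with array weights, -0.263 to 0.049 with 1 library left out), FOXO3 (-0.103 to 0.028 with 1 left out), PIK3R1 (-0.023 with the length trend removed) and IGFBP6 (-0.054, -0.059 and -0.049 with median-ratio scaling, quantile normalization and the length trend removed). On day 14 PIK3R2 was at -0.346, -0.260, -0.344 and -0.238 and PIK3R3 at -0.196, -0.222, -0.034 and -0.234 with median-ratio scaling, quantile normalization, array weights and the length trend removed, PIK3R2 at -0.394 to 0.525 with 1 library left out, and IGFBP7 on day 2 at -0.106 with median-ratio scaling. PIK3R1 was called lower on both days with quantile normalization, array weights and the length trend removed.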
